A study of Fragaria vesca with 9 samples.

Results

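The linkage group 4 neighbourhood is a row of 41 neighbouring gene identifiers of woodland strawberry, *Fragaria vesca*, from FvH4_4g29310 to FvH4_4g29630, out of 34006 in the tables. The members were taken by identifier alone, silent genes included, but the row was picked because part of it had been seen to be raised in FT3OE and in RdV against H4 in these same libraries. Levels against H4, and the calls made on them by the fit over all genes, are therefore given as a description with no p-values. The comparison of RdV with FT3OE, which the choice did not use, is given with its tests. In such identifiers the digit before the g names by convention a linkage group, and the digits that follow give the order along it. No coordinates were used. The files pair no identifier with a gene name or a function, so no member is given a role and no markers of the bud could be checked.

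The libraries were made from undifferentiated axillary buds taken at node 4 of plants at the 4-leaf stage, grown from seed in long days of 16 h with no treatment. H4 is the Hawaii-4 accession. FT3OE is named FT3 in the titles and carries the Hawaii-4 ecotype and genotype labels; its name is read here as a line that overexpresses FT3, and the promoter and the number of lines are not given in the labels. RdV is labelled as an ecotype and genotype of its own. Each had 3 libraries. The titles of H4 carry the code US4 and those of FT3OE and RdV the code UB4, neither of which the labels define, so that whatever the codes mark cannot be told apart from genotype in any comparison with H4. Nothing says that replicates came from separate plants, and any p-value then measures no more than how far these samples spread, a spread that may be technical.

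An axillary bud sits where a leaf joins the stem, and in strawberry it can grow into a runner, which spreads the plant, or into a branch crown, a short shoot able to flower. Proteins of the FLOWERING LOCUS T family are mobile signals that bring on flowering in many plants, and relatives in the same family can oppose them. Each bud pool mixes several cell types, so a change of RNA per cell and a change in the share of a cell type cannot be told apart.

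Total expected counts ran from 23110936 to 44916866 per library. The tested gene with the largest rise in FT3OE was FvH4_3g09870, with 7584, 11460 and 13889 counts in the 3 FT3OE libraries and at most 3 in any other library. RdV replicate 2 lay furthest from its own group, with a chi-square per degree of freedom of 30.43 and 21.18 against the other RdV libraries, where no other pair of one genotype passed 10.22. The count of members higher in both was 9 with it and 9 without it, but the set was not the same. Without it FvH4_4g29530 was no longer higher in both and FvH4_4g29350 was. The calls it changes are named with each gene.

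Of the 41 members, 27 had enough counts to be tested. Among these, 9 were higher than H4 in both FT3OE and RdV, which is 33.3% of the tested members, where 12.9% of all 18587 tested genes were higher in both (quasi-likelihood test of edgeR, with p adjusted over all genes by Benjamini and Hochberg and called under 0.05 in each comparison). Since the row was picked on this contrast, nothing is read from that difference. Another 2 members were higher in FT3OE but not called in RdV, 2 were higher in RdV but not called in FT3OE, 1 was lower in FT3OE but not called in RdV, 1 was lower in both and 12 were called in neither. Taken singly, FT3OE against H4 gave 11 members higher and 2 lower, where 31.7% of all tested genes were called, 16.7% higher and 14.9% lower. RdV against H4 gave 11 higher and 1 lower, where 48.1% of all tested genes were called, 24.4% higher and 23.6% lower. Of all tested genes 11.6% were lower in both. Both comparisons use the same H4 libraries. The name of the neighbourhood, raised in both, thus holds for a minority of its members. The median log2 fold change of the tested members was 0.50 in FT3OE and 0.44 in RdV, and that of all tested genes was 0.01 and 0.00.

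The other 14 members had too few counts. Of these, 9 had 0 counts in every library: FvH4_4g29311, FvH4_4g29360, FvH4_4g29390, FvH4_4g29440, FvH4_4g29510, FvH4_4g29511, FvH4_4g29512, FvH4_4g29520 and FvH4_4g29540. Levels are given as CPM, the counts scaled to a common library size. With a floor of 3 counts over a group, a count of 0 allows a level of up to 0.0376 CPM across H4, 0.0253 across FT3OE and 0.035 across RdV. Floors and intervals from counts cover counting error only. The remaining 5 were read a little: FvH4_4g29550 had 59 counts over the 9 libraries, FvH4_4g29463 had 22, FvH4_4g29481 had 6 and FvH4_4g29420 had 1. FvH4_4g29590 had 9 counts, all in FT3OE replicate 2.

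Several tested members did not pass the low-count filter in all libraries. A filter passed only through the group where a gene is high favours a difference there. FvH4_4g29600 passed in the 3 FT3OE libraries and in no other. FvH4_4g29310 passed in all libraries of RdV alone, but in 6 libraries over the 3 genotypes, so it did not enter through RdV only. FvH4_4g29460 and FvH4_4g29530 passed in all libraries of FT3OE and RdV but not in all of H4, FvH4_4g29450 in all of H4 and FT3OE but not in all of RdV, and FvH4_4g29461 in all libraries of no group.

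**Figure D1:**
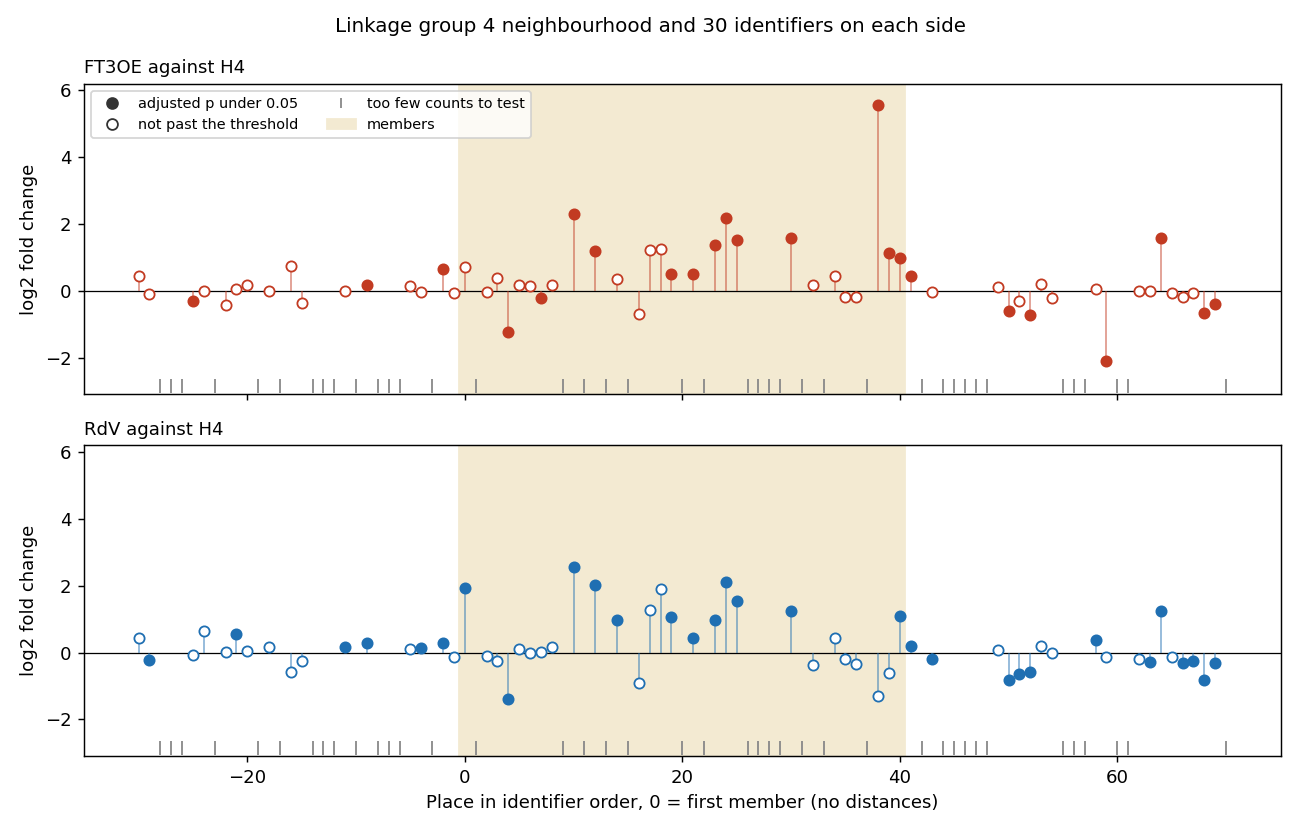
Log2 fold change (vertical axes) of FT3OE against H4 (upper panel) and RdV against H4 (lower panel) for each tested gene, by place in identifier order with the first member at 0; the shaded band holds the 41 members, filled points have an adjusted p under 0.05 and grey ticks mark identifiers with too few counts. Filled points above 0 in both panels gather in the middle of the band, with FvH4_4g29370 at 2.29 and 2.56, and the tall point at 5.57 in the upper panel, FvH4_4g29600, has no counterpart in the lower one.

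The genes higher in both did not fill the row. The first 8 tested members held none of them. The stretch from FvH4_4g29370 to FvH4_4g29530 holds 21 identifiers and was delimited after the values were seen, to begin and end at genes higher in both. Of its 12 tested genes, 8 were higher in both, where 12.9% of all tested genes were. Among the 8 are FvH4_4g29482, FvH4_4g29483 and FvH4_4g29484, which share reads as described below. Fold changes were above 0 in both comparisons for 11 of the 12, all but FvH4_4g29450. Of all 18587 tested genes, 9621 were above 0 in FT3OE and 9214 in RdV, each taken singly. Nothing is read from these counts, since the stretch was cut on the same calls. Of the 7 tested members after FvH4_4g29530, only the last, FvH4_4g29630, was higher in both. The longest unbroken row of such genes was 6 tested genes, from FvH4_4g29462 to FvH4_4g29530. It was 4 genes long with the genes that share reads summed, and 4 without the low-count filter. With single libraries left out it was 5 or 6. The row of 6 spans 12 identifiers, and the 6 untested ones among them include 4 with 0 counts in every library. It is thus unbroken only among the genes that could be tested.

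The gene that opens the raised stretch, FvH4_4g29370, also had the largest rise in RdV of any tested member. Its levels were 12.7, 11.2 and 9.86 CPM in H4, 57.7, 55.3 and 52.0 for FT3OE and 63.9, 64.4 and 70.6 for RdV. The 3 genotypes did not overlap, and H4 was far below the others. The log2 fold change was 2.29 ± 0.09 (SE) in FT3OE, a 4.88-fold difference, and 2.56 ± 0.09 in RdV, 5.88-fold. Per length, its mean went from 6.86 TPM (a level that is also divided by effective gene length) in H4 to 36.8 in FT3OE and 44.3 in RdV.

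The next tested gene, FvH4_4g29400, was less abundant and stood in 3 steps. Its levels were 2.40, 3.00 and 2.63 CPM in H4, 6.64, 5.99 and 5.73 for FT3OE and 10.03, 11.56 and 11.09 for RdV. Again no genotype overlapped another, with FT3OE between H4 and RdV. The log2 fold changes were 1.20 ± 0.13 and 2.03 ± 0.13 (SE).

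FvH4_4g29462, the most abundant member among those higher in both at a mean of 35.3 TPM, followed the same order. It stood at 24.1, 21.2 and 21.8 CPM in H4, at 31.3, 32.7 and 31.8 in FT3OE and at 47.7, 43.9 and 49.6 in RdV. The groups were again separate. Its log2 fold change was 0.51 ± 0.07 in FT3OE and 1.07 ± 0.07 in RdV (SE). FvH4_4g29480 changed least of the genes higher in both, with means of 9.58 ± 0.57 CPM for the H4 libraries, 13.6 ± 0.53 for FT3OE and 13.04 ± 1.19 in RdV (SD, n = 3 each) and log2 fold changes of 0.50 and 0.44. Its FT3OE and RdV libraries overlapped.

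FvH4_4g29482, FvH4_4g29483 and FvH4_4g29484 are neighbours that shared reads. Expected counts come from an estimate that divides a read among the genes it fits, and the counts of each of these genes were not whole numbers in 8 or 9 of the 9 libraries. Added together, the counts of all 3 came to within 0.01 of a whole number in every library, so the division lay among these genes themselves. Whether the shared sequence lies in similar genes or in overlapping gene models was not tested. The level of each alone is uncertain for this reason, and their sum is not affected by the division.

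The sum was 16.6, 16.1 and 16.3 CPM in H4, 43.4, 43.0 and 46.0 for FT3OE and 37.5, 35.1 and 35.1 for RdV. The 3 genotypes were separate, here with FT3OE above RdV. The log2 fold change of the sum was 1.44 ± 0.06 in FT3OE and 1.14 ± 0.06 in RdV (SE). Summing was an alternative added after the data had been seen.

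As divided by the authors, FvH4_4g29482 took most of these reads. It had 13.9, 13.3 and 12.4 CPM in H4, 34.6, 33.0 and 35.0 for FT3OE and 27.2, 24.6 and 26.0 for RdV. FvH4_4g29483 had 0.777, 0.590 and 0.603 CPM in H4, 3.60, 2.98 and 2.44 for FT3OE and 3.37, 1.88 and 3.26 for RdV. Its FT3OE and RdV libraries overlapped and all lay above H4. FvH4_4g29484 had 1.89, 2.18 and 3.23 CPM in H4, 5.23, 6.998 and 8.58 for FT3OE and 6.87, 8.60 and 5.90 for RdV, with the same arrangement. Log2 fold changes in FT3OE and RdV were 1.37 and 0.97 for FvH4_4g29482, 2.17 and 2.1 for FvH4_4g29483, and 1.51 and 1.54 for FvH4_4g29484. The share of the 3 genes' counts given to FvH4_4g29482 was 81.0% ± 4.1 in H4, 77.5% ± 2.0 in FT3OE and 72.3% ± 1.9 in RdV (SD, n = 3 each).

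FvH4_4g29530 closes the raised stretch after a gap of 4 silent identifiers. It had 10, 20 and 25 counts in H4, 50, 53 and 152 for FT3OE and 42, 46 and 54 for RdV, or 0.338, 0.908 and 0.887 CPM, then 1.85, 1.16 and 3.31, then 1.32, 1.73 and 1.98. All 6 libraries of FT3OE and RdV lay above H4, with FT3OE replicate 3 far above the other FT3OE libraries. Its log2 fold changes were 1.59 ± 0.45 and 1.25 ± 0.46 (SE). This was the weakest of the 9: it lost its place among the genes higher in both when any of 7 libraries was left out, with log2 values in FT3OE of 1.23 without H4 replicate 1 and 1.08 without FT3OE replicate 3, and in RdV of 0.89 without H4 replicate 1. The losses without H4 replicate 2, H4 replicate 3, FT3OE replicate 1, RdV replicate 2 or RdV replicate 3 left RdV values of 1.11 to 1.46. The other 8 kept their place in every alternative in which they were tested.

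FvH4_4g29630, the last member, was 6.08, 6.17 and 8.91 CPM in H4, 13.3, 11.7 and 17.1 for FT3OE and 14.2, 15.4 and 15.9 for RdV. Each library of FT3OE and RdV exceeded each of H4. The log2 fold change was 0.99 ± 0.17 in FT3OE and 1.1 ± 0.17 in RdV (SE).

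**Figure D2:**
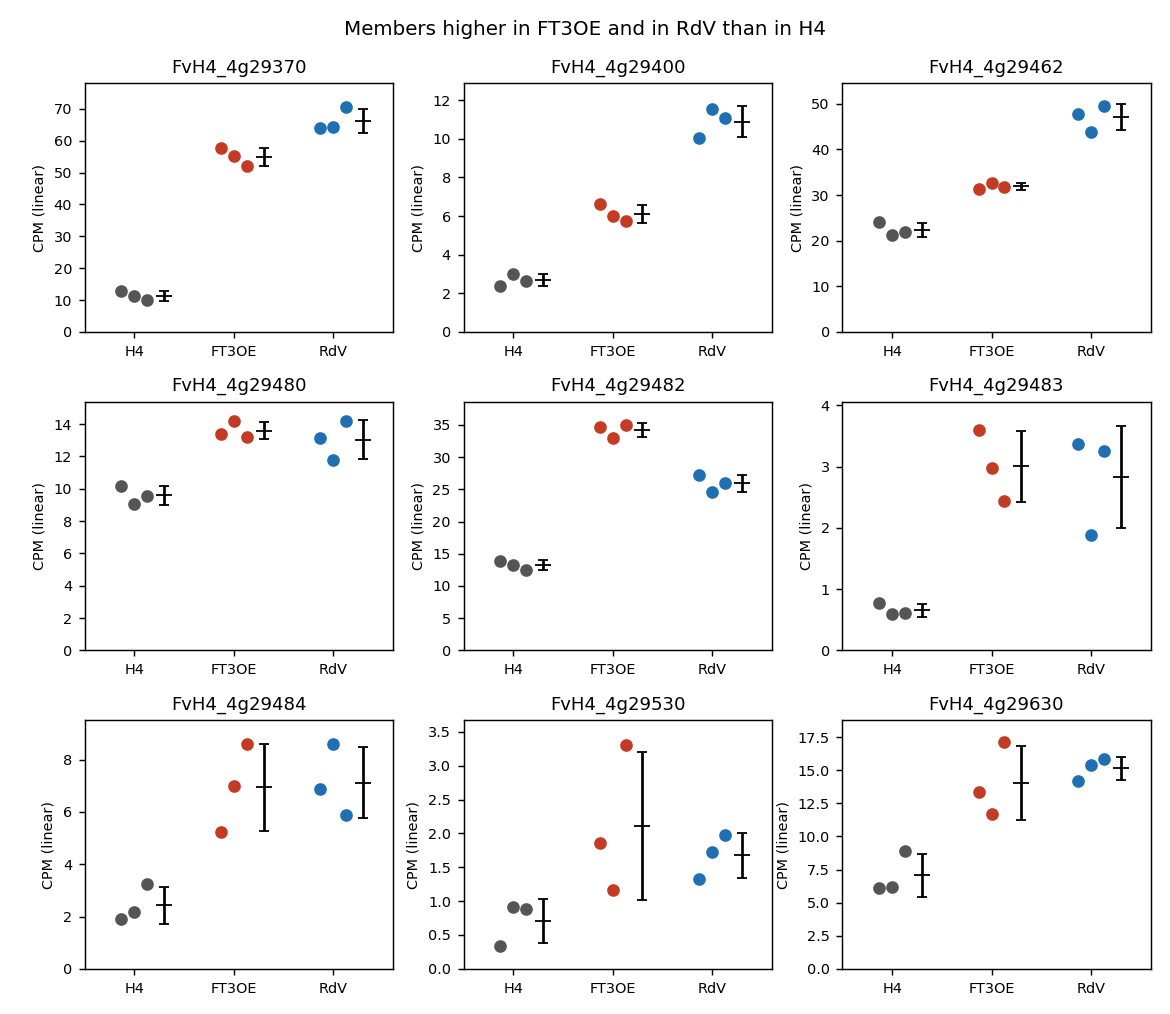
CPM (vertical axes, linear from 0) of the 9 members higher in both, by genotype, with 1 point per library and the mean ± SD of 3 libraries at the right of each group. In FvH4_4g29370, FvH4_4g29400 and FvH4_4g29462 RdV lies above FT3OE, whereas in FvH4_4g29482 FT3OE, at 33.0 to 35.0, lies above RdV, at 24.6 to 27.2.

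Summed over these 9 genes, the level lay between 53.5 and 57.3 TPM in the H4 libraries, between 135.1 and 141.0 in FT3OE and between 141.5 and 168.7 in RdV. Over all 41 members the sum was 297.2 to 308.5 TPM in H4, 418.3 to 429.5 in FT3OE and 398.0 to 453.6 in RdV. The sums are descriptions of genes chosen for these values and carry no test.

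FvH4_4g29600 was the member with the largest difference in FT3OE, and it was read almost only there. It had 2, 2 and 1 counts in H4, 135, 121 and 91 for FT3OE and 0, 1 and 1 for RdV, which is 5.004, 2.655 and 1.982 CPM in FT3OE. Every FT3OE library stood far above the other 6. Summed and scaled for depth, the counts stood in a ratio of 46.7 to H4 (exact 95% binomial interval 19.8 to 145). The neighbouring FvH4_4g29610 was also raised in FT3OE and not in RdV, at 1.42, 0.999 and 1.60 CPM in H4, 3.67, 2.57 and 2.72 for FT3OE and 0.820, 0.976 and 0.842 for RdV. Its RdV libraries were all below those of H4, but the log2 value of −0.62 ± 0.26 (SE) was not called, though it was at −0.78 without H4 replicate 2.

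The members raised in RdV and not called in FT3OE were FvH4_4g29430 and FvH4_4g29310. FvH4_4g29430, inside the raised stretch, had 2.77, 2.32 and 3.09 CPM in H4, 3.52, 3.29 and 3.68 for FT3OE and 5.71, 5.26 and 5.38 for RdV. FT3OE lay just above H4 without overlap, at a log2 value of 0.35 ± 0.15, and RdV well above it, at 0.99 ± 0.15 (SE). Under library totals alone FvH4_4g29430 was called higher in FT3OE as well. FvH4_4g29310, the first member, had 0.541, 0.318 and 0.177 CPM in H4, 0.297, 0.834 and 0.523 for FT3OE and 1.48, 1.28 and 1.28 for RdV, and H4 and FT3OE overlapped.

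The counts of FvH4_4g29310 were whole in all 6 H4 and FT3OE libraries and divided in all 3 RdV libraries, at 46.59, 34.02 and 34.73. Of 1306 other genes with divided counts in the tables, 1 alone completed them to whole numbers within 0.02 in all 3 RdV libraries. This was FvH4_4g29930, 31 identifiers past the last member, with 313.41, 244.98 and 250.27 counts in RdV and log2 values of 0.14 in FT3OE and 0.26 in RdV. The RdV level of FvH4_4g29310 thus depends on a division of reads that the other genotypes did not need.

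**Figure D3:**
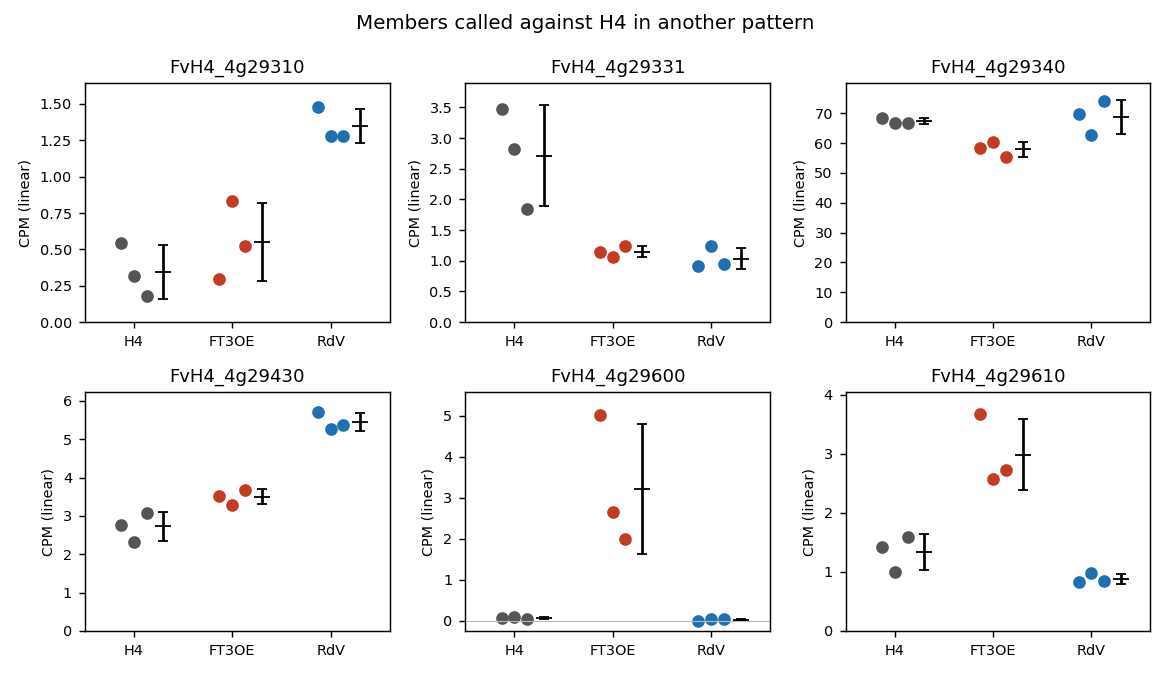
CPM (vertical axes, linear) of the 6 members called against H4 in a pattern other than higher in both, by genotype, with 1 point per library and the mean ± SD of 3 libraries at the right of each group. FvH4_4g29600 is near 0 outside FT3OE, and FvH4_4g29331 is the one member called lower than H4 in both FT3OE and RdV.

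FvH4_4g29331 was lower in both. It had 3.48, 2.81 and 1.85 CPM in H4, 1.15, 1.05 and 1.24 for FT3OE and 0.914, 1.24 and 0.952 for RdV. The H4 libraries spread widely but all exceeded the other 6. Its log2 fold change was −1.24 ± 0.26 in FT3OE and −1.39 ± 0.27 in RdV (SE). FvH4_4g29340 was lower in FT3OE alone, from 68.4, 66.8 and 66.9 CPM in H4 to 58.3, 60.3 and 55.3, with 69.6, 62.7 and 74.0 in RdV, and its log2 value of −0.22 ± 0.07 (SE) was no longer past the threshold in 10 of 20 alternatives. Those 10 were library totals alone, the 3 fits on TPM, the replicate block and the fits without any single H4 library, without FT3OE replicate 1 or without FT3OE replicate 3.

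Of the 5 most abundant members per length, 3 were called in neither comparison. FvH4_4g29320, at a mean of 57.9 TPM the highest, had 46.5, 50.4 and 47.8 CPM in H4, 48.9, 46.5 and 46.5 for FT3OE and 42.7, 48.0 and 45.5 for RdV. The genotypes overlapped, and the log2 values of −0.03 and −0.09 carried an SE of 0.06 each. FvH4_4g29333, at 52.5 TPM, had 40.9, 38.4 and 40.5 CPM in H4, 45.8, 44.9 and 41.5 for FT3OE and 37.8, 43.6 and 36.8 for RdV. It shared reads with FvH4_4g29332, the sum of both being whole in every library, and the summed log2 values were 0.14 ± 0.07 and −0.01 ± 0.07 (SE). FvH4_4g29333 by itself was called higher in FT3OE under library totals alone, at 0.23, and in the 3 fits on TPM, at 0.27.

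FvH4_4g29350 had 42.2, 39.4 and 37.0 CPM in H4, 45.6, 47.3 and 42.0 for FT3OE and 46.0, 42.1 and 46.4 for RdV. Its log2 values of 0.19 and 0.18 (SE 0.07 each) did not pass the threshold, but it was called higher in both under library totals alone, in the 3 fits on TPM and without RdV replicate 2, and RdV alone was called without H4 replicate 1, at 0.23. FvH4_4g29570 had 77.5, 70.0 and 71.2 CPM in H4, 61.4, 64.5 and 65.5 for FT3OE and 70.6, 58.2 and 63.5 for RdV. All FT3OE libraries were below H4, while RdV overlapped it, and the log2 values were −0.19 and −0.18 (SE 0.07 each). FT3OE was called lower in 3 of 20 alternatives, among them the fits without RdV replicate 1 or RdV replicate 2, at −0.19 and −0.20. RdV was called lower without RdV replicate 1, at −0.26.

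FvH4_4g29560, next in abundance per length after FvH4_4g29462, was called in neither comparison. It had 6.66, 7.85 and 9.19 CPM in H4, 8.79, 8.47 and 14.8 for FT3OE and 9.74, 10.9 and 11.5 for RdV, with log2 values of 0.44 ± 0.21 in each comparison (SE). FT3OE replicate 3 was the highest library, as in FvH4_4g29530 and FvH4_4g29630, and without it the FT3OE value was 0.13 and RdV was called higher at 0.44. RdV was called higher in 5 of 20 alternatives, this one included. The effective lengths of FvH4_4g29530 and FvH4_4g29560 were 0.252 and 0.261 times that of the median tested gene, so that FvH4_4g29560 reached 32.9 TPM from few counts.

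The remaining 7 of the 12 members called in neither comparison were FvH4_4g29330, FvH4_4g29332, FvH4_4g29450, FvH4_4g29460, FvH4_4g29461, FvH4_4g29541 and FvH4_4g29580. Their log2 values in FT3OE and RdV were 0.37 and −0.24 for FvH4_4g29330, 0.18 and 0.11 for FvH4_4g29332, and −0.69 and −0.90 for FvH4_4g29450. They were 1.23 and 1.28 for FvH4_4g29460 and 1.24 and 1.89 for FvH4_4g29461. FvH4_4g29541 had 0.19 and −0.36, and FvH4_4g29580 had −0.17 and −0.33. FvH4_4g29460 and FvH4_4g29461 had fold changes as large as those of called members, on 262 and 79 counts in all, but their libraries spread widely, with SE of 0.54 to 0.89, and neither was called. Leaving out 1 library brought a call for FvH4_4g29450, lower in RdV at −1.18 without H4 replicate 2, and for FvH4_4g29580, lower in RdV at −0.43 without RdV replicate 2.

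**Figure D4:**
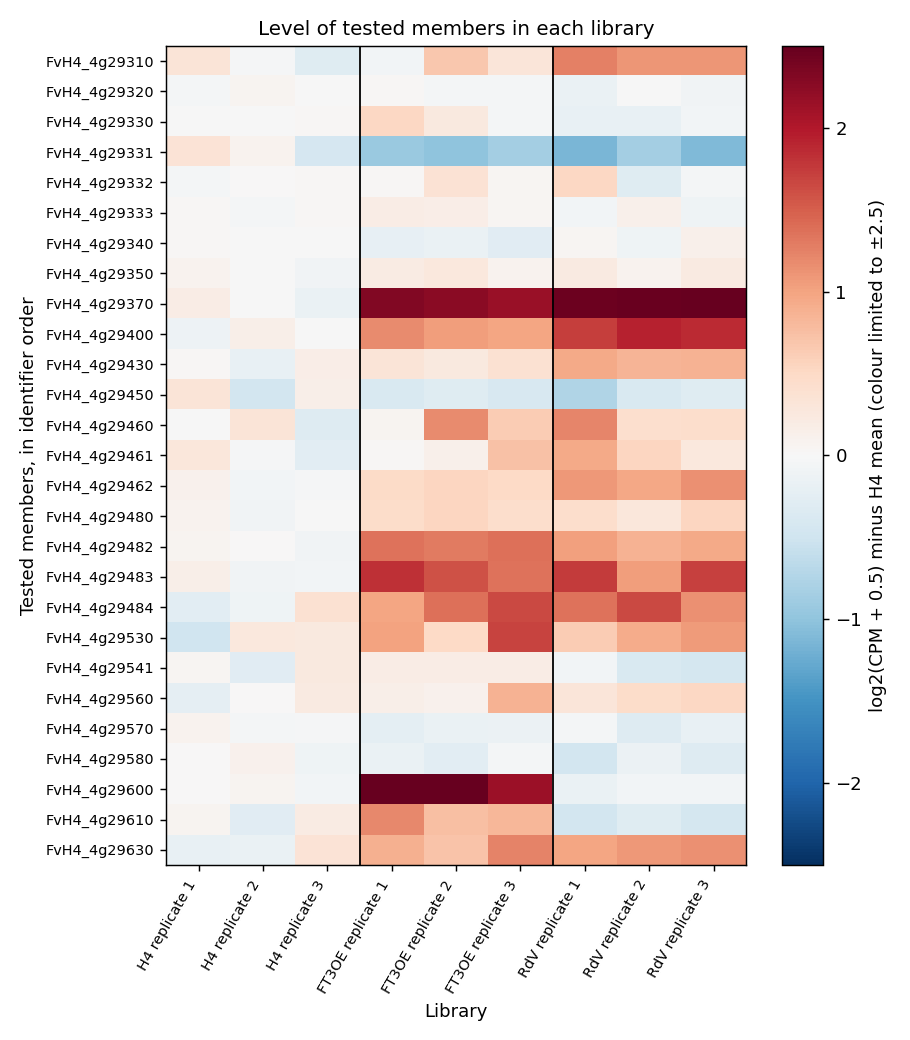
Level of each tested member (rows, in identifier order) in each library (columns), as log2(CPM + 0.5) minus the H4 mean of that gene, with the colour limited to ±2.5. FT3OE and RdV share most raised rows between FvH4_4g29370 and FvH4_4g29530, where FvH4_4g29450 is raised in neither, and FvH4_4g29630 is raised in both. FvH4_4g29600 is raised in FT3OE alone, and FvH4_4g29310 and FvH4_4g29430 are strongest in RdV.

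The 30 identifiers on each side set the edges of the row. Of the 34 flanking genes tested, 4 were higher in both, 2 of 16 before the members and 2 of 18 after them. These shares, 12.5% and 11.1%, were near the 12.9% of all tested genes that were higher in both. Before the members the median log2 value was 0.01 for FT3OE and 0.12 for RdV, and after them it was −0.05 and −0.19. In the flank after the members 4 tested genes were lower in both, and in the flank before them 0 were, where 11.6% of all tested genes were.

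At the start, the nearest outer genes were FvH4_4g29290 and FvH4_4g29300. FvH4_4g29290 had 31.7, 26.2 and 27.7 CPM in H4, 44.6, 48.3 and 42.7 for FT3OE and 38.2, 30.4 and 35.4 for RdV, with log2 values of 0.66 and 0.28, and RdV overlapped H4. FvH4_4g29300 stayed near its H4 level, at 37.6, 38.7 and 37.3 CPM against 37.5, 35.0 and 35.7 in FT3OE and 33.8, 38.1 and 32.6 in RdV. Inside the edge, FvH4_4g29310 and FvH4_4g29320 behaved as described above. FvH4_4g29310 was called higher in RdV alone, at a log2 value of 1.94 that rests on divided reads. The identifier where the row was made to begin is thus not one where both genotypes were higher. The first member higher in both lies 10 identifiers further in, at FvH4_4g29370, while FvH4_4g29290, outside the edge, was also higher in both.

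At the end, FvH4_4g29630 was followed by FvH4_4g29640, which was also higher in both, but by less. It had 19.2, 18.3 and 19.7 CPM in H4, 26.5, 26.9 and 24.9 for FT3OE and 22.6, 20.2 and 22.5 for RdV, with log2 values of 0.45 and 0.19. FvH4_4g29660 had 36.4, 31.6 and 35.5 CPM in H4, 33.1, 34.8 and 34.3 for FT3OE and 29.1, 29.8 and 31.7 for RdV. It was not higher in either genotype, and its log2 value of −0.19 in RdV was called lower.

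The other flanking genes higher in both were FvH4_4g29230, with log2 values of 0.17 and 0.29, and FvH4_4g29850, with 1.58 and 1.26. Of these 4 flanking genes FvH4_4g29850 had the largest log2 values in both comparisons, with levels that went from 1.35, 1.09 and 0.923 CPM in H4 to 3.89, 2.96 and 3.27 in FT3OE and 4.07, 1.95 and 2.05 in RdV. It kept its call in every alternative. FvH4_4g29230, FvH4_4g29290 and FvH4_4g29640 were higher in both in 10, 14 and 8 of 20 alternatives, so that the flanks held 1 to 4 such genes when single libraries were left out. Removing any single H4 or FT3OE library, RdV replicate 1 or RdV replicate 3 ended the call of at least 1 of these genes.

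The comparison of RdV with FT3OE was not used to choose the members. Of the 27 tested members, 9 differed, 6 higher and 3 lower in RdV, where 22.2% of all tested genes were called in this comparison, 11.1% in each direction. Of the 9, FvH4_4g29600 entered the test only through the group where it is high, so nothing is read from this count beside the share of all genes. The median log2 value of the members was −0.06, and that of all tested genes −0.01.

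Among the genes raised in both, FvH4_4g29370, FvH4_4g29400 and FvH4_4g29462 were higher in RdV than in FT3OE. The log2 difference was 0.83 ± 0.12 for FvH4_4g29400 (SE; edgeR adjusted p = 0.00069) and 0.56 ± 0.07 for FvH4_4g29462 (edgeR adjusted p = 0.000239), and these calls were kept in all 20 alternatives. For FvH4_4g29370 it was 0.27 ± 0.08 (edgeR adjusted p = 0.0391), a 1.21-fold difference that was not past the threshold in 11 of 20 alternatives, with adjusted p of 0.0149 to 0.151. It was lost without H4 replicate 2, RdV replicate 1, RdV replicate 3 or any single FT3OE library, at log2 values of 0.22 to 0.30.

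FvH4_4g29482 went the other way, with RdV below FT3OE at −0.40 ± 0.07 on the log2 scale (SE; edgeR adjusted p = 0.00182). The sum of the 3 genes that share reads differed in the same direction, by −0.30 ± 0.06 (edgeR adjusted p = 0.00377). FvH4_4g29400 and FvH4_4g29482 therefore ordered RdV and FT3OE in opposite ways within the same stretch.

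The other 5 members raised in both were not called in this comparison. The 95% intervals of the log2 difference were −0.26 to 0.14 for FvH4_4g29480 and −0.26 to 0.47 for FvH4_4g29630. They were −0.63 to 0.48 for FvH4_4g29483, −0.47 to 0.53 for FvH4_4g29484 and −1.24 to 0.56 for FvH4_4g29530. These intervals leave room for differences in either direction, and the missing calls do not show that RdV and FT3OE are alike in these genes.

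The remaining calls were in members with other patterns. FvH4_4g29600 had summed counts 125 times as high in FT3OE as in RdV after scaling for depth, its RdV side resting on 2 counts (exact 95% binomial interval 34.5 to 1040, for counting error only). FvH4_4g29600 passed the low-count filter only through its high group, so its difference is given as a description with no p-value. FvH4_4g29310 was higher in RdV by 1.24 ± 0.4 (SE; edgeR adjusted p = 0.046). Its RdV level rests on the division of reads described above. FvH4_4g29610 was lower in RdV by −1.75 ± 0.25 (SE; edgeR adjusted p = 0.000553). FvH4_4g29430 was higher in RdV by 0.64 ± 0.15 (edgeR adjusted p = 0.00961). FvH4_4g29340 was higher by 0.25 ± 0.07 (edgeR adjusted p = 0.0205). FvH4_4g29340 was not past the threshold in 7 of 20 alternatives, with adjusted p of 0.00161 to 0.133, and FvH4_4g29310 in 11 of 19. The libraries whose removal ended the call were FT3OE replicates 1 and 3 and RdV replicates 1 and 3 for FvH4_4g29340, at log2 values of 0.19 to 0.25. For FvH4_4g29310 they were H4 replicate 2, FT3OE replicates 1 and 3 and each RdV library, at 0.99 to 1.28. The 18 members not called had log2 values of −0.61 to 0.65.

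**Figure D5:**
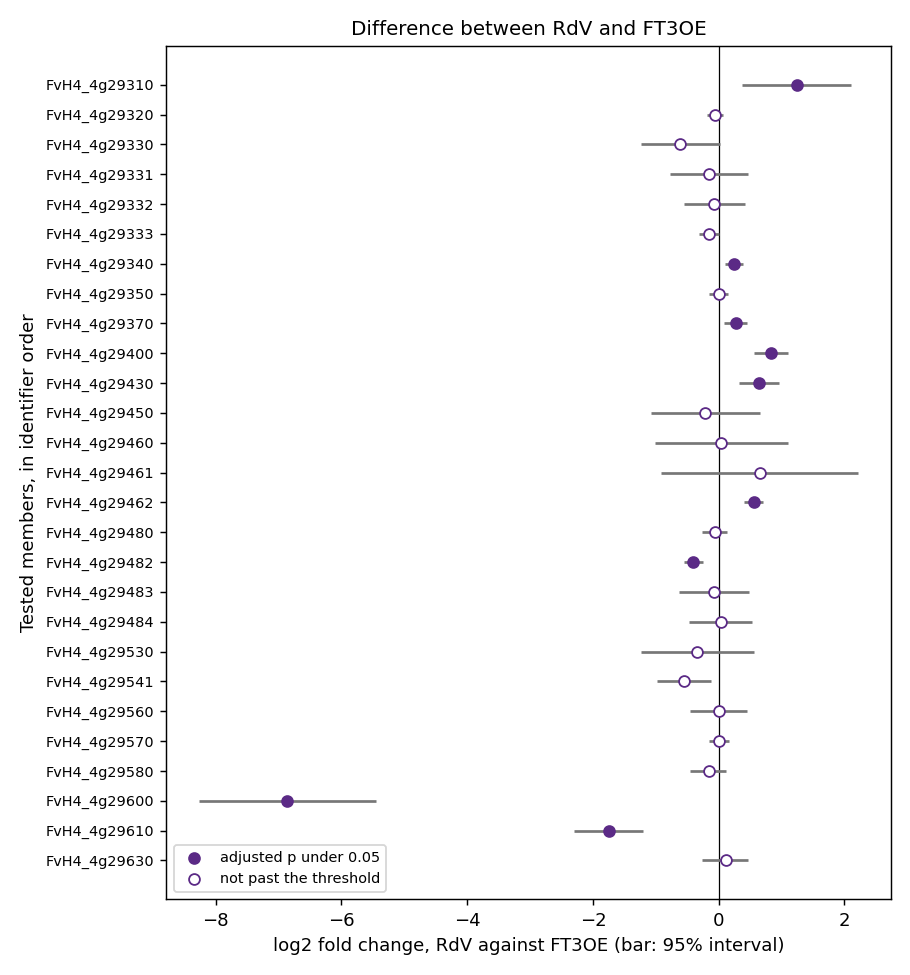
Log2 fold change of RdV against FT3OE (horizontal axis) for the 27 tested members in identifier order, with 95% intervals as bars and filled points where the adjusted p was under 0.05. FvH4_4g29600, at −6.86, and FvH4_4g29610, at −1.75, stand apart on the side of FT3OE, and the calls from FvH4_4g29370 to FvH4_4g29462 lie on the side of RdV.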

How the data were processed

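RNA was sequenced as stranded 150 bp paired reads, per the labels' protocols. The authors deposited expected counts per gene, estimates that are not normalized and were whole in 97.5% of values, and TPM per gene, scaled to a fixed sum per library. The submitters' processing notes list STAR, RSEM and edgeR with no role for any. The genome build is not given in the sources used here. None of the identifiers matched the gene table used here (0 of 34006), so no sequence is shown.

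Members and lists were chosen with earlier results of these data known. Expected counts were rounded, filtered with filterByExpr, given TMM factors, and fitted over all 9 libraries at once by quasi-likelihood in edgeR 4.0.16 (R 4.3.3), with Benjamini-Hochberg adjustment over 18587 genes. CPM use TMM-scaled library sizes. An SE is the absolute log2 fold change divided by the root of the F statistic. For ratios of summed counts the 95% interval is the exact Clopper-Pearson one (scipy 1.17.1). The procedure was tested on simulated data. Alternatives used DESeq2 1.42.0, limma 3.58.1 on log2(TPM + 1) or log2(TPM + 0.1), other scalings and filters, a replicate block and leaving out each library.

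Named in full are the members higher in both, the 5 most abundant, those called between RdV and FT3OE, the 2 tested genes on each side of both edges, up to 6 members not higher in both and the flanking genes higher in both.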

Additional observations from a re-analysis of the deposited data

Results flagged for a closer look

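Every entry here is a member whose change against H4 differed between FT3OE and RdV by the test of RdV against FT3OE (quasi-likelihood test of edgeR, adjusted p under 0.05). The log2 difference, RdV against FT3OE, was −6.86 for FvH4_4g29600, which was read almost only in FT3OE. It was −1.75 for FvH4_4g29610, its neighbour in identifier order, and −0.40 for FvH4_4g29482, one of 3 genes that share reads. The members higher in RdV were FvH4_4g29310 at 1.24, FvH4_4g29400 at 0.83, FvH4_4g29430 at 0.64, FvH4_4g29462 at 0.56, FvH4_4g29370 at 0.27 and FvH4_4g29340 at 0.25. FvH4_4g29600 passed the low-count filter only through the group where it is high, and its difference is a description.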

How the results depend on the processing

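In the 20 alternatives to the reported values, 7 to 11 members were higher in both FT3OE and RdV, the 7 arising because the 3 genes that share reads then count as 1. The 4 flanking genes higher in both were 2 with DESeq2, without the low-count filter and in fits of the 6 libraries compared, and 1 to 4 with single libraries left out, but 6 under library totals alone and in each of the 3 limma fits on TPM. The median log2 fold change of tested members in FT3OE, 0.503, was 0.596 under library totals alone and 0.332 with limma on log2(TPM + 1). In RdV, 0.44, it was 0.519 under library totals alone, 0.574 with limma on log2(TPM + 0.1), 0.301 with a minimum mean of 1 TPM, 0.311 with genes that share reads summed, and 0.326 to 0.439 with single libraries left out (0.326 without H4 replicate 1). Library totals moved the median of all tested genes in FT3OE from 0.013 to 0.107 and limma on log2(TPM + 1) to 0.118, and in RdV from −0.004 to 0.076 and 0.109. The split of higher against lower calls over all genes, 3112 to 2772 in FT3OE and 4544 to 4392 in RdV, became 4568 to 1777 and 5565 to 3341 under library totals, and 4294 to 1345 and 5656 to 2661 with limma on log2(TPM + 1). Uncalled differences between RdV and FT3OE changed sign with single libraries left out, from −0.12 to 0.01 for FvH4_4g29480, −0.21 to 0.16 for FvH4_4g29483, −0.13 to 0.21 for FvH4_4g29484, −0.64 to 0.17 for FvH4_4g29530 and −0.01 to 0.28 for FvH4_4g29630. The cause was not tested. Replicate numbers did not pair the libraries (correlations of deviations from −0.178 to 0.181), and with them as a replicate block 9 members were higher in both. FvH4_4g29370 (edgeR adjusted p = 0.0564) and FvH4_4g29310 were then no longer called between RdV and FT3OE.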
